A study of Homo sapiens with 12 samples.

Results

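Death receptors are cell-surface proteins of the TNF receptor superfamily that carry a death domain inside the cell and can start apoptosis when a ligand binds them. FAS binds FAS ligand, TNFRSF10A and TNFRSF10B (TRAIL receptors 1 and 2, also called DR4 and DR5) bind TRAIL, and TNFRSF1A binds TNF. FADD is the adaptor that joins occupied FAS, TNFRSF10A and TNFRSF10B to procaspase-8, the product of CASP8. CFLAR encodes c-FLIP, a caspase-8 relative without protease activity that can block this step. TNFRSF10C and TNFRSF10D bind TRAIL but lack a working death domain and are known as decoy receptors, while EDA2R is a receptor for an ectodysplasin form and signals without a classical death domain. Several of the receptor genes, FAS and TNFRSF10B among them, are known as direct targets of p53.

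The 10 genes described here were chosen by name, as death receptors, their decoys and the proximal signalling genes. All 10 were listed in each of 4 result tables, out of 23195 genes in both Nutlin-3a tables, 20026 in the table of siRFX7 in DMSO and 19393 in the table of siRFX7 in Nutlin-3a. The tables come from polyA RNA of HCT116 cells, an established line from a human colorectal carcinoma that keeps wild-type p53. The siRNA transfected was siControl, a control, or siRFX7, which targets the transcription factor gene RFX7, and the cells were then given DMSO, the solvent, or 10 µM Nutlin-3a for 24 h. Nutlin-3a blocks MDM2 and so stabilises p53. Each of the 4 groups had 3 libraries, 12 in all, and all groups share the one cell line and a transfection with siRNA. Nothing in the labels says whether the 3 replicates were separate cultures, so the p-values measure the spread between these libraries, which may be technical.

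The values are group statistics from the authors' fit and not values per library. Group means in normalized counts (counts divided by a library's size factor) were recovered from the authors' deposited tables, each with 1 standard error of the model. The spread between replicates that the fit assigns beyond counting noise was 3.84% to 7.03% of the mean for 9 of the genes and 37.4% for EDA2R. Counting noise comes on top of this and weighs most at low counts. Depth recovered in the same way, summed over the 19393 genes in all 4 tables, averaged between 26639567 and 27271253 counts per library over the groups. RFX7 was at 19.6% of its siControl level in DMSO and at 22.6% in Nutlin-3a, per the authors' deposited tables. The p53 targets MDM2 and CDKN1A rose with Nutlin-3a by 3.99 and 4.46 in log2 units under siControl and by 3.30 and 3.53 under siRFX7, per the authors' deposited tables. Of 7 epithelial markers, EPCAM, CDH1 and KRT8 had mean normalized counts of 7516, 2585 and 80338, and KRT18 and KRT19 had 33123 and 54952. The colon markers VIL1 (3.67 to 17.5 over the groups) and CDH17 (a mean of 1.41) were near 0. As in any bulk sample, fewer cells with an RNA and less RNA per cell cannot be told apart. Of 10 markers of leukocytes, endothelium, fibroblasts and muscle, PTPRC, CD3E and PECAM1 were not listed, and those listed lay between 1.15 and 640, the highest being ACTA2, which overlaps FAS. Group means could be recovered for 3 of these, VWF, COL1A1 and ACTA2, whose sum was 509 under siControl with DMSO, 1294 with Nutlin-3a, and 912 and 1663 under siRFX7. Without ACTA2 the sums were 413, 361, 529 and 515, so the higher sums with Nutlin-3a are those of ACTA2. Over 6 epithelial markers the sum was 119044 and 268087 under siControl, and 114435 and 212520 under siRFX7, in the same order.

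RefSeq promoter windows ran from 250 bases before to 50 bases after a transcript start (build GRCh38.p14). They were examined for 6 of the 10 genes, with 14 windows in all. TNFRSF10A, TNFRSF10B, TNFRSF10C and TNFRSF10D were left out of this search, so nothing is said of their promoters. The 14 windows were searched on both strands for the RFX motif GTTGCNA and for the p53 half-site consensus. The stretches that matched are printed here because they lie at genes whose RNA moved with Nutlin-3a or siRFX7. Each is written 5′ to 3′ on the gene's strand with the match in capitals, and positions count from the transcript start.
FAS, p53 half-site at -122 to -113, chr10:88991299-88991328, plus strand: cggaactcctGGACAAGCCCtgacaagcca
CASP8, p53 half-site at -121 to -112, chr2:201257864-201257973, plus strand: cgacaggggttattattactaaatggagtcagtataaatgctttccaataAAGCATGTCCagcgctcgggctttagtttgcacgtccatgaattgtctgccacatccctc
TNFRSF1A, RFX motif at -16 to -9, chr12:6342075-6342102, minus strand: ctgtcccgctGTTGCAACactgcctcac
CFLAR, RFX motif at -140 to -134, chr2:201128775-201128881, plus strand: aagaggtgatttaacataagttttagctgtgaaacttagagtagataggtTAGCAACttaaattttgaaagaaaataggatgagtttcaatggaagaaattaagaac
EDA2R, RFX motif at 6 to 12, chrX:66639247-66639273, minus strand: ttgggctgttGTTGCTAcacgtggatg

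The FAS match belongs to 1 of the 3 FAS windows, that of a start inside the gene. It lies within 13 of 20 annotated FAS transcripts (GENCODE release 29), over an annotated exon. The CASP8 match belongs to 1 of 3 windows, lies within 8 of 20 transcripts and overlaps no exon. In TNFRSF1A, GTTGCAAC reads the same on both strands and so holds 2 overlapping matches, and it lies within 2 of 16 annotated transcripts, over a UTR. The CFLAR match is on the opposite strand, in 1 of 4 windows, over no exon, and the EDA2R match is shared by both EDA2R windows, lying at 6 to 12 after one start and at -185 to -179 from the other, over an annotated UTR. FADD had 1 window and no match. Of all 35116 windows of the same length, 9.21% held the RFX motif and 6.63% the p53 half-site, so a match is common and is given as a description.

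FAS (ENSG00000026103, chromosome 10 from 88990582 to 89015785, plus strand, GRCh38) rose strongly with Nutlin-3a and was also higher with siRFX7. Its group means were 434 normalized counts under siControl with DMSO (417 to 451 at 1 standard error), 2337 under siControl with Nutlin-3a (2268 to 2407), 798 under siRFX7 with DMSO (771 to 825) and 3393 under siRFX7 with Nutlin-3a (3296 to 3493). No 2 of these intervals overlap, and both Nutlin-3a groups lie above both DMSO groups. The rise with Nutlin-3a was 5.39-fold in siControl and 4.25-fold in siRFX7, log2 fold changes of 2.43 and 2.09 (standard errors 0.07 and 0.06; DESeq2 adjusted p 3.53e-256 and 3.91e-229) in the authors' deposited tables. siRFX7 raised FAS by 0.88 in DMSO and 0.54 in Nutlin-3a in log2 units (DESeq2 adjusted p 4.85e-30 and 2.16e-17) in the authors' deposited tables. FAS shares 380 of its 4253 exonic bases (8.93%) with ACTA2 on the other strand, and the strand setting of the counting is not given in the sources used here. ACTA2, the smooth muscle actin gene, had group means of 96.1, 933, 383 and 1147 normalized counts in the same order of groups, with the same rank of the groups as FAS. The part of ACTA2 reads in the FAS counts was not tested.

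The 4 TRAIL receptor genes lie side by side on chromosome 8, TNFRSF10B from 23020133 to 23069179, TNFRSF10C from 23102590 to 23117437, TNFRSF10D from 23135588 to 23164030 and TNFRSF10A from 23190452 to 23225126 (GRCh38). TNFRSF10C is on the plus strand and the other three on the minus strand. Despite their kinship, their annotated transcripts share no stretch of 50 bases with each other, so reads of that length or longer would not fit 2 of them exactly. Of the 50-base words of TNFRSF10C, 35.4% also occur in 2 neighbouring gene models on the same strand. AC107959.4 covers 26.0% of the TNFRSF10C exonic bases and AC107959.5 13.3%. Only AC107959.4 was listed, with a mean of 5.86 normalized counts. How reads in the shared bases were counted was not tested, and that low count does not settle it. Of the TNFRSF10A words 12.4% are shared with other genes, chiefly on the other strand.

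TNFRSF10B, the TRAIL receptor with the highest level per length here, rose with Nutlin-3a by nearly equal folds under both siRNAs. Its group means were 4299 normalized counts under siControl with DMSO (4167 to 4435), 12549 under siControl with Nutlin-3a (12175 to 12934), 4514 under siRFX7 with DMSO (4376 to 4656) and 13148 under siRFX7 with Nutlin-3a (12757 to 13552). The Nutlin-3a groups lie far above the DMSO groups, and within each treatment the siRNA groups overlap. The log2 fold change with Nutlin-3a was 1.55 in siControl and 1.54 in siRFX7 (standard error 0.06 each; DESeq2 adjusted p 6.05e-133 and 5.81e-133) in the authors' deposited tables. With siRFX7 it was 0.07 in DMSO and 0.07 in Nutlin-3a (DESeq2 adjusted p 0.455 and 0.468) in the authors' deposited tables, with 95% intervals of -0.05 to 0.19 in both.

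TNFRSF10A, the other signalling TRAIL receptor, was raised by Nutlin-3a under both siRNAs. The rise was larger with siRFX7 by the z test of the difference, a call lost with a t distribution (adjusted p 0.209). It had 1455 normalized counts under siControl with DMSO (1412 to 1500), 3304 under siControl with Nutlin-3a (3213 to 3398), 1433 under siRFX7 with DMSO (1391 to 1477) and 3981 under siRFX7 with Nutlin-3a (3872 to 4093). The DMSO groups overlap, and the siRFX7 Nutlin-3a group is the highest. Nutlin-3a gave log2 fold changes of 1.18 in siControl and 1.47 in siRFX7 (standard error 0.06 each; DESeq2 adjusted p 1.08e-86 and 3.30e-136), per the authors' deposited tables. With siRFX7 the log2 fold change was -0.02 in DMSO (DESeq2 adjusted p 0.844), and TNFRSF10A rose by 0.27 in Nutlin-3a (DESeq2 adjusted p 2.22e-05), per the authors' deposited tables.

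TNFRSF10C, the decoy anchored to the membrane by a lipid, had the largest fold rise of the 10 genes in siControl. Its group means were 53.1 normalized counts under siControl with DMSO (48.6 to 58.0), 535 under siControl with Nutlin-3a (510 to 561), 167 under siRFX7 with DMSO (158 to 177) and 693 under siRFX7 with Nutlin-3a (661 to 725), with no overlap between any of them. Nutlin-3a raised it 10.1-fold in siControl and 4.14-fold in siRFX7, log2 fold changes of 3.33 and 2.05 (standard errors 0.15 and 0.11; DESeq2 adjusted p 7.91e-114 and 9.42e-78) in the authors' deposited tables. siRFX7 raised it 3.15-fold in DMSO and 1.30-fold in Nutlin-3a (DESeq2 adjusted p 1.03e-24 and 6.89e-04) in the authors' deposited tables.

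TNFRSF10D, the decoy with a shortened death domain, was the member that siRFX7 lowered under Nutlin-3a. It had 1787 normalized counts under siControl with DMSO (1732 to 1843), 5432 under siControl with Nutlin-3a (5277 to 5592), 1665 under siRFX7 with DMSO (1614 to 1717) and 3791 under siRFX7 with Nutlin-3a (3681 to 3904). The siControl Nutlin-3a group is the highest, which sets its order apart from that of TNFRSF10A, FAS and TNFRSF10C, where the siRFX7 Nutlin-3a group is. Nutlin-3a gave log2 fold changes of 1.60 in siControl and 1.19 in siRFX7 (standard error 0.06 each; DESeq2 adjusted p 3.38e-149 and 1.14e-80), per the authors' deposited tables. With siRFX7 it fell by 0.52 in Nutlin-3a (DESeq2 adjusted p 1.73e-16), and its log2 fold change in DMSO was -0.10 (DESeq2 adjusted p 0.243), per the authors' deposited tables.

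**Figure D1:**
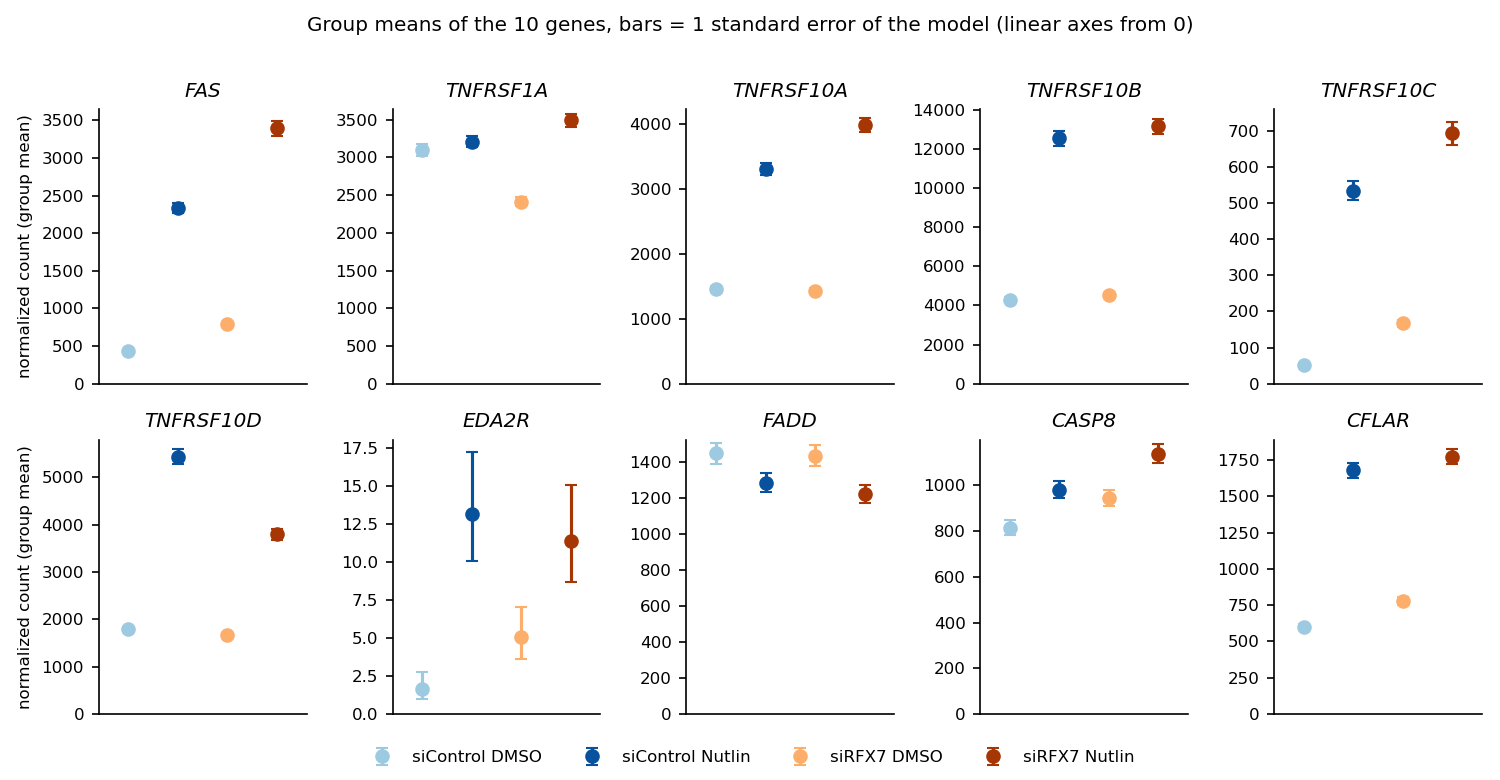
Recovered group means in normalized counts for the 10 genes (1 panel each, linear axes from 0), with bars of 1 standard error of the model, 3 libraries a group. FAS and TNFRSF10C step up from siControl DMSO (434 and 53.1) to siRFX7 DMSO (798 and 167) and again in both Nutlin-3a groups, while TNFRSF10D falls from 5432 to 3791 between the Nutlin-3a groups.

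TNFRSF1A (ENSG00000067182, chromosome 12 from 6328757 to 6342114, minus strand), the main TNF receptor of most cells, rose with Nutlin-3a in siRFX7 cells and fell with siRFX7 in DMSO. Its group means were 3100 normalized counts under siControl with DMSO (3025 to 3176), 3212 under siControl with Nutlin-3a (3134 to 3291), 2410 under siRFX7 with DMSO (2350 to 2471) and 3491 under siRFX7 with Nutlin-3a (3407 to 3576). The siRFX7 DMSO group is low, and the siControl groups overlap. Nutlin-3a gave a log2 fold change of 0.05 in siControl (95% interval -0.05 to 0.15; DESeq2 adjusted p 0.450) and raised TNFRSF1A by 0.53 in siRFX7 (DESeq2 adjusted p 2.40e-25), per the authors' deposited tables. siRFX7 lowered it in DMSO, with a log2 fold change of -0.36 (standard error 0.05, DESeq2 adjusted p 1.78e-11), and gave 0.12 in Nutlin-3a (DESeq2 adjusted p 0.0535), per the authors' deposited tables. That last value was called with scaling to equal total counts (adjusted p 0.0137) and with genes under a mean of 10 left out (adjusted p 0.0475).

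EDA2R (ENSG00000131080, chromosome X from 66595637 to 66639298, minus strand) was close to the limit of detection. Its group means were 1.67 normalized counts under siControl with DMSO (1.01 to 2.74), 13.2 under siControl with Nutlin-3a (10.1 to 17.2), 5.05 under siRFX7 with DMSO (3.63 to 7.03) and 11.4 under siRFX7 with Nutlin-3a (8.66 to 15.0). The first of these corresponds to about 4.99 counts over 3 libraries. The log2 fold change with Nutlin-3a was 2.98 in siControl (95% interval 1.39 to 4.58; DESeq2 adjusted p 8.33e-04) and 1.18 in siRFX7 (-0.04 to 2.39; adjusted p 0.122), per the authors' deposited tables. The siRFX7 comparisons gave 1.60 in DMSO and -0.21 in Nutlin-3a (DESeq2 adjusted p 0.162 and 0.835), so no difference with siRFX7 was detectable at this depth in the authors' deposited tables.

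The adaptor and the initiator caspase moved little. FADD (ENSG00000168040, chromosome 11 from 70203163 to 70207390, plus strand) had 1451 normalized counts under siControl with DMSO, 1288 under siControl with Nutlin-3a, 1438 under siRFX7 with DMSO and 1224 under siRFX7 with Nutlin-3a. Its log2 fold change with Nutlin-3a was -0.17 in siControl and -0.23 in siRFX7 (DESeq2 adjusted p 0.0800 and 0.0132), and it therefore fell at the threshold in siRFX7 alone, per the authors' deposited tables; with scaling to equal totals it also fell in siControl (adjusted p 0.0414). An antisense gene model, AP000879.1, covers 54.9% of the FADD exonic bases, with a mean of 4.30 normalized counts against 1350 for FADD.

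CASP8 (ENSG00000064012, chromosome 2 from 201233443 to 201287711, plus strand) had 815 normalized counts under siControl with DMSO, 981 under siControl with Nutlin-3a, 945 under siRFX7 with DMSO and 1137 under siRFX7 with Nutlin-3a. It rose by 0.27 with Nutlin-3a under each siRNA (DESeq2 adjusted p 0.00148 in siControl and 0.00130 in siRFX7) and by 0.21 with siRFX7 in each treatment (DESeq2 adjusted p 0.0207 in DMSO and 0.0196 in Nutlin-3a), in log2 units in the authors' deposited tables. The siRFX7 DMSO and siControl Nutlin-3a groups differ by 0.05 with a rebuilt standard error of 0.08, so they stand as neighbours that cannot be told apart.

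CFLAR (ENSG00000003402, chromosome 2 from 201116104 to 201176687, plus strand), which lies near CASP8 and encodes an inhibitor of its product, rose clearly. Its group means were 598 normalized counts under siControl with DMSO (577 to 620), 1681 under siControl with Nutlin-3a (1630 to 1733), 779 under siRFX7 with DMSO (753 to 805) and 1774 under siRFX7 with Nutlin-3a (1721 to 1829). Nutlin-3a raised it 2.81-fold in siControl and 2.28-fold in siRFX7 (DESeq2 adjusted p 2.21e-104 and 9.65e-72), per the authors' deposited tables. siRFX7 raised it by 0.38 in log2 units in DMSO (DESeq2 adjusted p 1.28e-06), and its value in Nutlin-3a was 0.08 (adjusted p 0.391), per the authors' deposited tables. The ratio of CFLAR to CASP8 was 2.33-fold its siControl DMSO value under siControl with Nutlin-3a, 1.12-fold under siRFX7 with DMSO and 2.12-fold under siRFX7 with Nutlin-3a, which are descriptions with no test. The gene models of CFLAR include long transcripts, and 14.1% of its 50-base words occur in other genes.

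Counted together, Nutlin-3a raised 8 of the 10 genes in siControl, where 22.0% of all genes tested were called higher, and 8 of 10 in siRFX7, where 21.7% were, per the authors' deposited tables (DESeq2 adjusted p below 0.05). The members raised in siControl were the 7 genes FAS, TNFRSF10A, TNFRSF10B, TNFRSF10C, TNFRSF10D, CASP8 and CFLAR together with EDA2R; in siRFX7 cells TNFRSF1A was called in place of EDA2R. No member was called lower in siControl by DESeq2, against 21.2% of all genes, with 1 (FADD) at an unadjusted p below 0.05; in siRFX7 FADD was, against 19.7%. The median log2 fold change of the 10 genes was 1.52 in siControl and 1.19 in siRFX7, beside 0.02 and -0.02 over all genes tested. All genes here include those with mean normalized counts down to 0.998, while the members other than EDA2R had means from 362 to 8627. The shares of all genes are therefore not shares among genes of like depth.

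**Figure D2:**
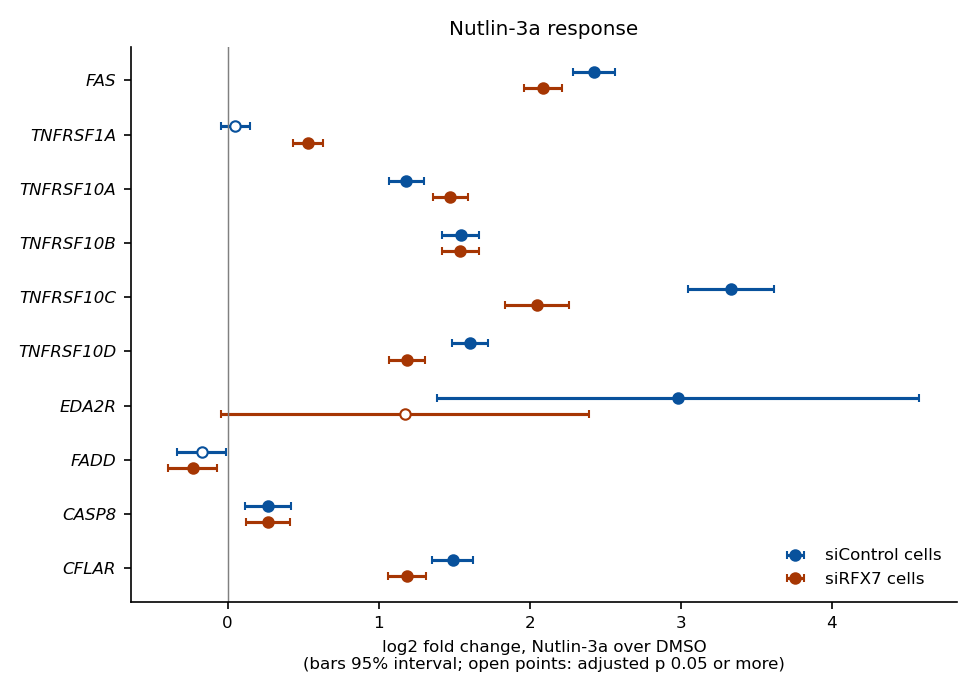
Log2 fold change of Nutlin-3a over DMSO in siControl cells (blue) and siRFX7 cells (brown) for the 10 genes, with 95% intervals; filled points have an adjusted p under 0.05 by the authors' deposited tables. TNFRSF10B has nearly the same value under both siRNAs (1.55 and 1.54), TNFRSF10C drops from 3.33 to 2.05 and TNFRSF1A goes from 0.05 to 0.53.

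With siRFX7, 4 members rose in DMSO (FAS, TNFRSF10C, CASP8 and CFLAR), where 13.5% of all genes were called higher, and TNFRSF1A fell, where 15.5% were called lower, per the authors' deposited tables. In Nutlin-3a, 4 rose (FAS, TNFRSF10A, TNFRSF10C and CASP8), where 15.0% of all genes were called higher, and TNFRSF10D fell, where 13.6% were, per the authors' deposited tables. These comparisons share groups with those of Nutlin-3a, so the values stand side by side and are not independent. The median log2 fold change of the members was 0.14 in DMSO and 0.10 in Nutlin-3a, beside -0.003 and 0.002 over all genes. With a minimum absolute log2 fold change of 0.58, FAS and TNFRSF10C were left in DMSO and no member in Nutlin-3a by DESeq2; that last count was also 0 at an unadjusted p below 0.05.

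**Figure D3:**
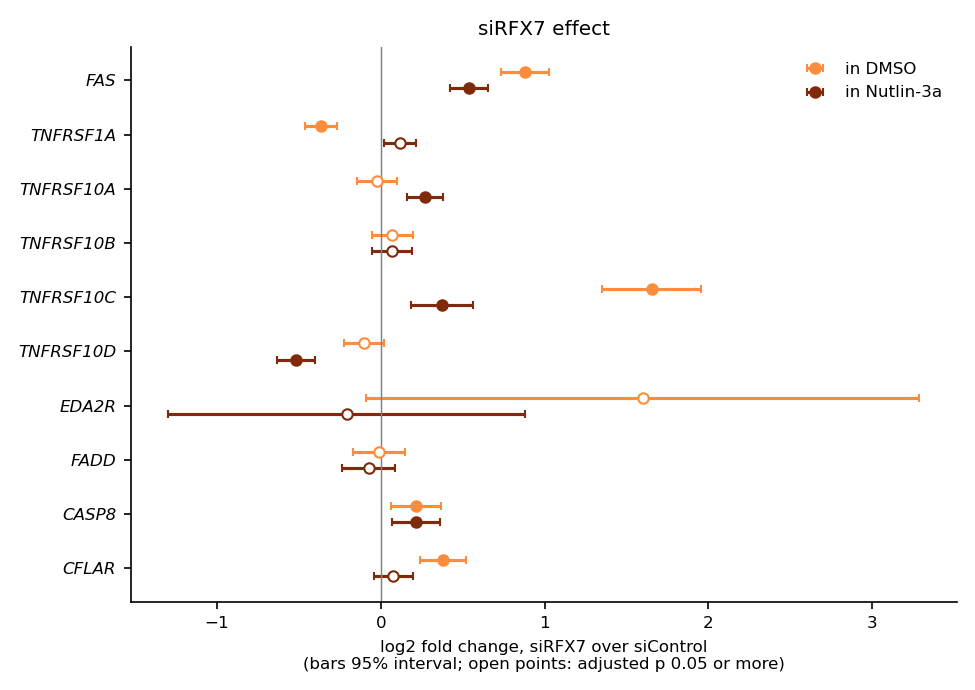
Log2 fold change of siRFX7 over siControl in DMSO (orange) and in Nutlin-3a (dark brown) for the 10 genes, with 95% intervals; filled points have an adjusted p under 0.05 by the authors' deposited tables. TNFRSF10C is at 1.65 and 0.37, FAS at 0.88 and 0.54, and TNFRSF10D at -0.10 and -0.52.

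Whether the Nutlin-3a response differed between the siRNAs was tested by the interaction, the log2 fold change in siRFX7 minus that in siControl, with a z test adjusted over all 23195 genes. It equals the siRFX7 effect in Nutlin-3a minus that in DMSO, so it reads the same 4 group means in another order. It was called for 6 of the 10 genes, beside 6.2% of all genes. Of these, 4 were below 0 (2.92% of all genes) and 2 above 0 (3.28%). The shares of all genes again cover genes of every depth. Below 0 were TNFRSF10C at -1.28 (standard error 0.18, adjusted p 3.51e-10 by the z test across all genes), TNFRSF10D at -0.42 (0.09, adjusted p 0.000100), FAS at -0.34 (0.10, adjusted p 0.00984) and CFLAR at -0.30 (0.09, adjusted p 0.0275). Above 0 were TNFRSF1A at 0.48 (0.07, adjusted p 1.41e-09) and TNFRSF10A at 0.29 (0.08, adjusted p 0.0126). The 95% interval was -0.18 to 0.17 for TNFRSF10B, -0.21 to 0.21 for CASP8 and -0.29 to 0.17 for FADD, and -3.82 to 0.20 for EDA2R, which leaves a wide range for that gene. The z test treats the standard errors as known. With a t distribution of 8 degrees of freedom, TNFRSF10C (adjusted p 0.0203) and TNFRSF1A (0.0224) stayed called and TNFRSF10D (0.0825), FAS (0.198), TNFRSF10A (0.209) and CFLAR (0.250) did not.

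The groups behind these interactions differ. For TNFRSF10C, FAS and CFLAR the siRFX7 effect was larger in DMSO (1.65, 0.88 and 0.38) than in Nutlin-3a (0.37, 0.54 and 0.08). TNFRSF10D had instead a DMSO value of -0.10 and a Nutlin-3a value of -0.52. TNFRSF10A had -0.02 and 0.27, and TNFRSF1A -0.36 and 0.12, all in log2 units in the authors' deposited tables. The p53 targets CDKN1A and MDM2 also had interactions below 0, at -0.93 and -0.69 (adjusted p 7.17e-10 and 1.90e-12 by the z test). For CDKN1A the siRFX7 effect was 1.29 without Nutlin-3a, against 0.35 with it. That of MDM2 went from 0.49 without Nutlin-3a to -0.21 with it. Whether TNFRSF10C, FAS and CFLAR follow a shift shared with other p53 targets was not tested.

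The balance of signalling and decoy TRAIL receptor RNA was described per length, as normalized counts per kb of exon summed over the 4 genes. Both signalling receptors together held the larger share in every group. The decoys TNFRSF10C and TNFRSF10D held 28.7% of the sum under siControl with DMSO (standard error 0.764), 33.9% under siControl with Nutlin-3a (0.763), 29.2% under siRFX7 with DMSO (0.740) and 27.0% under siRFX7 with Nutlin-3a (0.654). The sum itself was 1860 per kb in siControl DMSO and 1921 under siRFX7 with DMSO, and 5374 and 5340 in the matching Nutlin-3a groups. TNFRSF10D went from 28.6% to 20.1% between the Nutlin-3a groups, TNFRSF10A from 20.8% to 25.3% and TNFRSF10C from 5.33% to 6.94%. These shares have no test, their errors take the genes as independent, and they depend on the length used: with GENCODE basic transcripts, chosen after the data were seen, the decoy share was 25.4%, 30.3%, 26.0% and 24.1% in the same order of groups. The length of TNFRSF10C includes the bases it shares with neighbouring gene models, and their effect on its share was not tested.

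**Figure D4:**
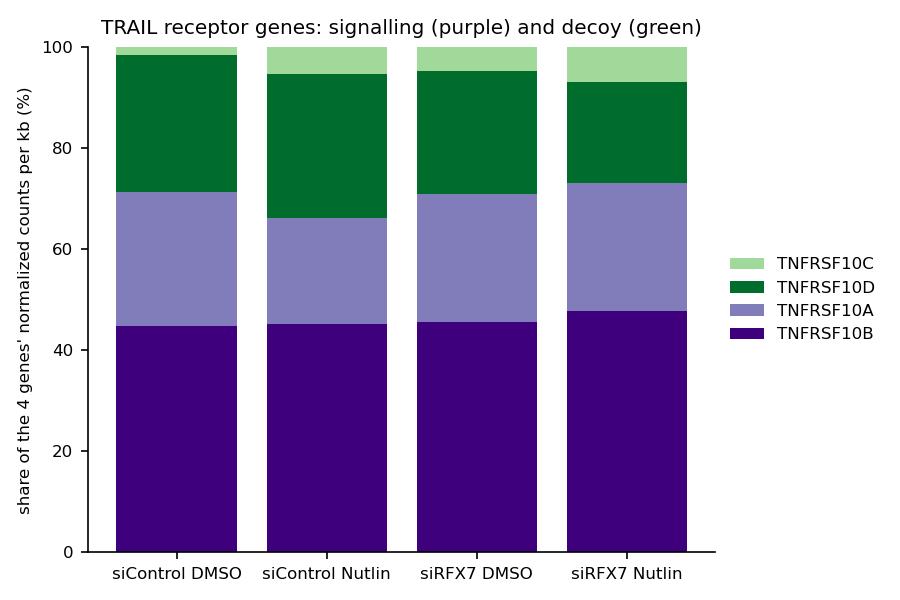
Share of each TRAIL receptor gene in the summed normalized counts per kb of the 4 genes, by group (stacked bars to 100%; purple signalling receptors, green decoys). The green part is tallest in siControl Nutlin-3a (33.9%) and lowest in siRFX7 Nutlin-3a (27.0%).

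Genes with the most similar pattern were found by the distance between log2 group means, each gene centred on its own mean over the 4 groups, among 10863 protein-coding genes with a mean of at least 100. They are descriptions over 4 groups. The nearest to FAS were ASTN2, ALS2CL and PANK1 (distances 0.09, 0.12 and 0.14), to TNFRSF10B TBC1D2, RASAL1 and MAPKBP1 (0.02, 0.05 and 0.06), and to TNFRSF10A PRRG1, HBEGF and RABGGTA (0.08, 0.09 and 0.10). TNFRSF10C had no close match, with FXYD3, TLR3 and SULF2 at 0.33, 0.36 and 0.36. The nearest to TNFRSF10D were ID3, ZSWIM4 and SYTL1 (0.07, 0.09 and 0.14), to CFLAR PPM1D, ANO9 and MSX1 (0.05, 0.10 and 0.10), and to TNFRSF1A SH2B3, FYN and FNDC3B (0.05, 0.07 and 0.08). For EDA2R they were LOXL4, FDXR and ORAI3, at 0.29, 0.44 and 0.51. The log2 group means of EDA2R had standard errors of 0.39 to 0.72, of similar size to these distances or larger, so its nearest genes are uncertain. FADD and CASP8, which moved little, had neighbours within 0.03: MEIS2, PBRM1 and MRPL57 for FADD, and FKBP1A, DENND1A and CARNMT1 for CASP8.

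Around these genes, a list of 42 further genes of the pathway was examined, of which 34 were listed in both Nutlin-3a tables. In siControl, 9 of the 34 rose and 10 fell with Nutlin-3a, beside 22.0% and 21.2% of all genes, per the authors' deposited tables. In siRFX7, 14 rose and 6 fell, beside 21.7% and 19.7%, per the authors' deposited tables. The share that rose in siRFX7 was above that of all genes. All these shares were nearer to those of all genes than the members' were. The list's median log2 fold change was 0.06 in siControl and 0.14 in siRFX7. Of the 6 ligands, FASLG, TNFSF10 (TRAIL), TNF and LTA were not listed; EDA, the ectodysplasin gene, had a mean of 232 normalized counts, and TNFSF15 rose in siControl from a level too low to size the change (mean 3.43). Among 8 other death-domain and decoy receptors, 6 were listed. EDAR rose and TNFRSF19 fell under both siRNAs, and NGFR, the p75 neurotrophin receptor, fell by 1.07 in siControl with a value of -0.19 in siRFX7 (DESeq2 adjusted p 6.74e-23 and 0.166) in the authors' deposited tables. The NGFR interaction was 0.88 (standard error 0.15, adjusted p 5.45e-07 by the z test).

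All 12 genes of the adaptors and the TNF receptor complex were listed with Nutlin-3a. In siControl, 3 rose (TRADD, BIRC3 and CYLD) and 4 fell (TRAF2, DAXX, TNFAIP3 and RBCK1) with Nutlin-3a, beside 22.0% and 21.2% of all genes, in the authors' deposited table. In siRFX7, 5 rose (TRADD, RIPK1, BIRC2, BIRC3 and CYLD) and 2 fell (TRAF2 and DAXX), beside 21.7% and 19.7%, in the authors' deposited table; TNFAIP3 and RBCK1 were not called there (DESeq2 adjusted p 0.149 and 0.106). RBCK1 (HOIL-1), a subunit of the linear ubiquitin ligase that acts at TNFRSF1A, had group means of 3519 under siControl with DMSO, 1920 under siControl with Nutlin-3a, 1871 under siRFX7 with DMSO and 2008 under siRFX7 with Nutlin-3a. Its interaction was 0.98 (standard error 0.07, adjusted p 1.77e-38 by the z test), with siControl DMSO standing above the other groups.

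Caspase genes and BID, which links caspase-8 to mitochondria, were higher with siRFX7. Of 6 genes, 5 rose in DMSO and 6 in Nutlin-3a, CASP10, CASP9, CASP6 and BID among them in both, per the authors' deposited tables. Beside them stand the 13.5% and 15.0% of all genes given above. Those shares cover genes of every depth, while the 6 genes had mean normalized counts from 97.2 to 1953. CASP10, the caspase-8 paralog, rose by 0.92 and 0.87 in log2 units, per the authors' deposited tables, where DESeq2 gave adjusted p-values of 1.82e-05 and 1.28e-05. Of 5 caspase brakes and their antagonists, 4 were listed; FAIM fell with Nutlin-3a under both siRNAs and rose with siRFX7 in both treatments, per the authors' deposited tables. Of the necroptosis pair, RIPK3 was not listed, and MLKL rose with siRFX7 in both treatments, by 0.35 and 0.48 in log2 units (DESeq2 adjusted p 0.0145 and 4.43e-04), per the authors' deposited tables. EDA, EDAR, TNFRSF19, CASP10, MLKL and the genes named beside small counts were singled out after their values were seen.

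DDIT3 (CHOP) and ATF4, transcription factors reported to raise TNFRSF10B under stress, fell with Nutlin-3a in siControl, where TNFRSF10B rose. In siRFX7, where TNFRSF10B rose too, the log2 fold change was -0.55 for ATF4 and -0.08 for DDIT3. DESeq2 gave adjusted p-values of 5.70e-12 and 0.608 for these in the authors' deposited tables. DDIT3 had group means of 725 under siControl with DMSO, 199 under siControl with Nutlin-3a, 292 under siRFX7 with DMSO and 276 under siRFX7 with Nutlin-3a, and ATF4 had 14166, 5128, 6895 and 4717. Their interactions were 1.79 and 0.92 (adjusted p 2.65e-30 and 4.74e-15 by the z test), where that of TNFRSF10B was -0.003. Of the 34 listed genes of the pathway list, 5 had a called interaction, NGFR, RBCK1, DDIT3 and ATF4 among them, beside 6.2% of all genes. All 5 were above 0, beside 3.28% of all genes. None was called below 0 by the z test, beside 2.92% of all genes, nor was any at an unadjusted p below 0.05. The part of these genes in the values of the members was not tested.

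**Figure D5:**
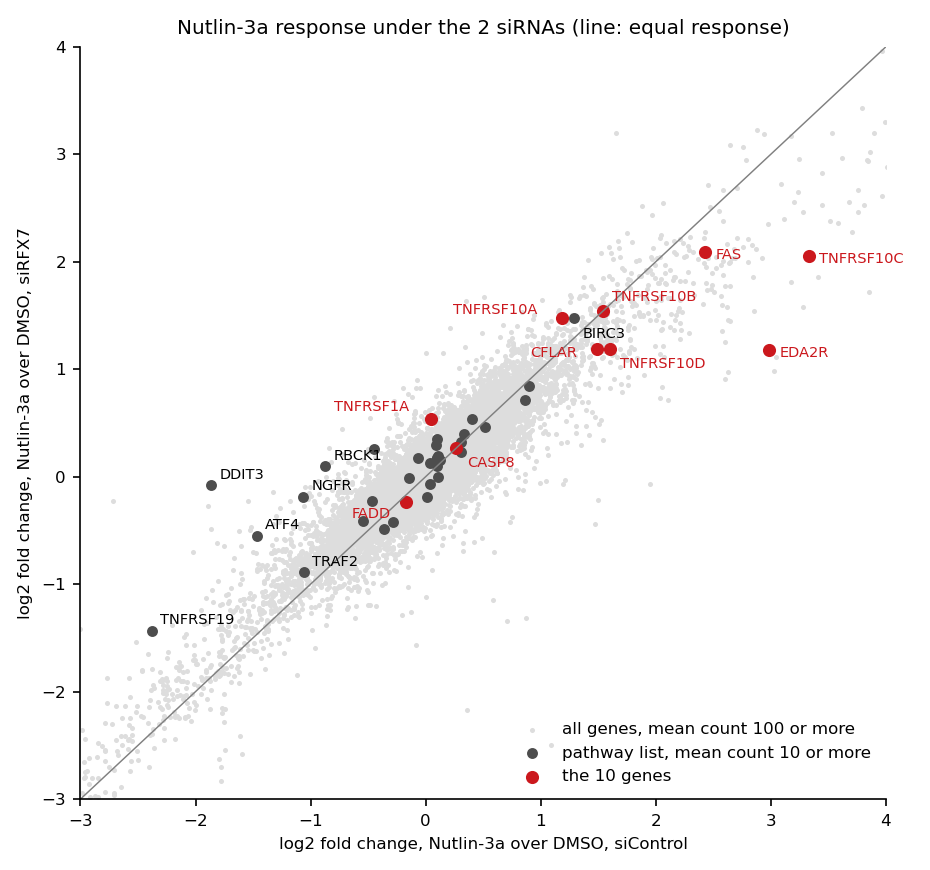
Log2 fold change with Nutlin-3a in siControl (x) against siRFX7 (y), comparisons that share no library: 12463 genes with a mean count of at least 100 in grey (208 lie outside the axes), 32 genes of the pathway list in dark grey, the 10 members in red; the line marks equal response. TNFRSF10B lies on the line at 1.55 and 1.54, FAS, TNFRSF10C, TNFRSF10D and CFLAR below it, and TNFRSF1A and TNFRSF10A above it with DDIT3, ATF4, NGFR and RBCK1.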

How the data were processed

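RNA was sequenced from 12 polyA libraries of 500 ng total RNA each. The submitters' processing notes name featureCounts 1.6.5, DESeq2 1.20.0 and the build hg38; the aligner, annotation and strand setting are not given in the sources used here. The deposited tables hold the mean normalized count (a signal made by dividing counts by size factors), the fold change and its standard error in log2, the statistic (a score, fold change over error) and the authors' p-value and adjusted p-value. In each deposited table the adjusted p-value equals the Benjamini-Hochberg adjustment over the genes listed. Tables of the knockdown give siRFX7 relative to siControl, because the fold changes of the 4 tables then close to within 1.27e-14.

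Genes were called at an adjusted p below 0.05. Group means were solved gene by gene from the mean counts and fold changes. Size factors were fitted with the standard errors of 4482 genes, and dispersions were then solved gene by gene. Among genes above a minimum group mean, rebuilt standard errors differed from the deposited ones by a median of at most 2.74e-06 (relative). The interaction was a two-sided z test, adjusted over 23195 genes. Exonic lengths and overlaps came from GENCODE release 29 (GRCh38). Calculations used Python 3.11.15, numpy 2.4.6 and scipy 1.17.1 and were tested on simulated data. The members, the pathway list and the tests were chosen with earlier results of these data known. All 10 members were to be named; of the pathway list, genes with a called interaction, and otherwise the pair in each role with the largest called siControl change, plus 3 nearest patterns per member. Alternatives changed the threshold, minimum fold, scaling, count filter, adjustment and reference distribution. Some genes of the pathway list are not reported here by name.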

Additional observations from a re-analysis of the deposited data

Results flagged for a closer look

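Nutlin-3a had unlike effects under the 2 siRNAs for 6 genes, as the z test on the difference of the 2 log2 fold changes (siRFX7 minus siControl, adjusted over 23195 genes) called them. That difference was -1.28 for TNFRSF10C, -0.42 for TNFRSF10D, -0.34 for FAS, -0.30 for CFLAR, 0.48 for TNFRSF1A and 0.29 for TNFRSF10A. TNFRSF10C and TNFRSF1A stayed called with a t distribution of 8 degrees of freedom.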

How the results depend on the processing

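Of 245 values of single members under the alternatives, 214 kept their direction and their side of the threshold. Values that changed sign were the siRFX7 effects in DMSO of FADD (0.0444) and TNFRSF10A (0.0349) with equal total counts, neither called; that scaling shifts every siRFX7 log2 fold change by 0.06 in DMSO and 0.03 in Nutlin-3a. A minimum absolute log2 change of 0.58 left 5198 genes for Nutlin-3a in siControl (10022 without it), 4830 in siRFX7 (9601), 1547 for siRFX7 in DMSO (5811), 1482 in Nutlin-3a (5554) and 544 interactions (1437). For the members it left 2 in DMSO (from 5), 0 in Nutlin-3a (from 5 by DESeq2) and 1 interaction (from 6), that of TNFRSF10C. The 0 in Nutlin-3a also held at an unadjusted p below 0.05 with the same minimum change. An adjusted p below 0.01 left 863 interactions. Among the members, 5 values lost their call at that threshold. They were the siRFX7 effects of CASP8 in DMSO and in Nutlin-3a and the fall of FADD with Nutlin-3a in siRFX7. The other values were the interactions of TNFRSF10A and CFLAR. A t distribution of 8 degrees of freedom left 274 interactions, and 2 among the members. With equal total counts, the siRFX7 effects in DMSO split into 3391 higher and 2262 lower genes (2704 and 3107 without it) and the interactions into 583 and 792 (760 and 677). The decoy shares with basic transcript lengths are given in the report; the cause of these changes is the length used. EDA2R, with a mean of 7.83, was not tested where means under 10 were left out. No paired analysis was possible because the tables hold group statistics without values per library; for the same reason no replicate could be left out. Depth per library limits EDA2R most.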
